A study of Gossypium hirsutum with 18 samples.

Results

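MYB108 is the name of a plant transcription factor of the R2R3-MYB class, and in ovules of upland cotton (Gossypium hirsutum) 9 genes whose recommended protein name contains MYB108 were among the genes the study's authors had listed as differing between a fiber-bearing line and a fiberless mutant. They were chosen by their protein name among the 11153 genes that the authors had selected on adjusted p-value and fold change of normalised reads on at least 1 of 3 days. All 9 were listed at 1 day post-anthesis (DPA), and 0 were listed at -1 or 0 DPA. The lists of -1 and 0 DPA ended at smaller adjusted p-values, so absence from them does not show a lack of difference. Every one of the 9 copies was higher in the mutant, Xu142fl, than in Xu142 at 1 DPA. Because a gene had to be listed as different to be found at all, this direction and the size of the difference are a description, and no test was made of it. Upland cotton carries an A and a D subgenome, and 5 of the genes lay on A and 4 on D chromosomes. They formed 4 pairs of corresponding A and D copies (homeologs), on chromosomes A01 and D01, A02 and D02, A10 and D10, and A11 and D11, plus 1 copy on A09 whose D partner was not listed.

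As background, R2R3-MYB proteins bind DNA through a pair of MYB repeats. In Arabidopsis, MYB108 is also known as BOS1, from a mutant with altered response to the fungus Botrytis; it is induced by jasmonate, acts with MYB24 in the maturation of stamens, and its protein is a target of the ubiquitin ligase BOI. In cotton, a MYB108 protein has been described that takes part in defence against the wilt fungus Verticillium dahliae and binds a calmodulin-like protein.

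The libraries came from ovules of Xu142, which bears lint and fuzz fibers, and of Xu142fl, its fuzzless and lintless mutant, at -1, 0 and 1 DPA. Each of the 6 groups had 3 libraries, 18 in all, and the treatment label of every group was "Unhandled". The mutation that Xu142fl carries is not named in the labels. Nothing says that the 3 libraries of a group came from separate plants, so the spread between them may be technical. The series as a whole asks how the histone mark H3K27me3 bears on the start of fiber growth.

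Values are normalised reads, that is reads of a gene divided by 1 factor for its library. Over the genes listed at 1 DPA, the libraries held 2833696 to 6388114 reads, and the factors ran from 0.733 to 1.76. These sums are not library depths, which are unknown here. At 1 DPA the authors listed 10793 of 61474 genes tested (17.6%), of which 3505 were higher in Xu142fl (5.7% of the genes tested). The listed genes at 1 DPA had an adjusted p under 0.05 and a deposited log2 fold change of at least 1 in size. The largest adjusted p in the authors' list was 0.0497 at 1 DPA, but 0.0131 at 0 DPA and 4.93e-05 at -1 DPA. The lists therefore did not reach the same adjusted p on each day, and their sizes are not directly comparable. Only 872 genes (1.5%) were listed at -1 DPA, with 0.824% of the genes tested higher and 0.676% lower in Xu142fl. At 0 DPA 1366 genes (2.38%) were listed, 0.876% higher and 1.51% lower, against 11.9% lower at 1 DPA. A gene not listed on a day has no value there. How reads were shared between near-identical A and D copies, and whether strand was used, is not given in the sources used here, so the split of reads within a homeolog pair is uncertain.

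The pair on A11 and D11 gave most MYB108 reads. The D11 copy, Gh_D11G116300 (chromosome D11, 10332194 to 10333264, plus strand), stood at 118.9, 84.6 and 59.7 normalised reads in the 3 Xu142 libraries and at 242.9, 247.0 and 216.1 in the 3 Xu142fl libraries. The lowest mutant library was thus above the highest Xu142 library. The group means were 87.7 ± 29.8 and 235 ± 16.8 (SD, n = 3), a 2.68-fold difference with a log2 ratio of 1.42 ± 0.29 (SE). This was the smallest ratio among the 9 copies. The A11 copy, Gh_A11G114000 (chromosome A11, 11034599 to 11035828, plus strand), had 20.7, 96.9 and 60.8 in Xu142 and 169.6, 250.1 and 267.8 in Xu142fl. Again the groups did not overlap, but the Xu142 libraries spread widely, and replicate 1 was lowest for A11 where it was highest for D11. The A11 means were 59.5 ± 38.1 and 229 ± 52.3 (SD, n = 3), a 3.85-fold difference with a log2 ratio of 1.95 ± 0.57 (SE). Added together, the A11 and D11 copies reached 147 ± 31.2 in Xu142 and 464 ± 45.5 in Xu142fl (SD, n = 3). The log2 ratio of that sum was 1.66 ± 0.19 (SE), which does not rest on the split of reads between the copies.

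The pair on A02 and D02 came next. Gh_A02G064100 (chromosome A02, 8397432 to 8399601, minus strand) stood at 4.14, 30.0 and 15.2 normalised reads in Xu142 and at 82.3, 92.2 and 98.1 in Xu142fl. The mutant libraries lay close together and far above all 3 Xu142 libraries, with means of 16.5 ± 12.98 and 90.9 ± 8.01 (SD, n = 3) and a log2 ratio of 2.47 ± 0.66 (SE), or 5.52-fold. Its D partner Gh_D02G068500 (chromosome D02, 8101416 to 8103208, minus strand) had 0, 5.46 and 2.34 in Xu142 and 10.04, 18.4 and 23.8 in Xu142fl. These values stand for 0, 4 and 2 reads against 10, 18 and 42 reads. The groups did not overlap, and the log2 ratio was 2.75 ± 0.94 (SE), or 6.71-fold.

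The copies on A01 and D01 were near alike in level. Gh_A01G208400 (chromosome A01, 108376162 to 108377448, plus strand) had 3.10, 2.73 and 2.34 normalised reads in Xu142 and 10.04, 18.4 and 24.4 in Xu142fl, with a log2 ratio of 2.69 ± 0.36 (SE). Gh_D01G206300 (chromosome D01, 58666335 to 58667396, plus strand) had 1.03, 5.46 and 0 in Xu142 and 12.04, 16.4 and 14.2 in Xu142fl, with a log2 ratio of 2.72 ± 1.12 (SE). Neither copy overlapped between the groups, and the larger error of the D01 ratio came with its uneven Xu142 values.

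The remaining 3 copies were at or next to 0 reads in Xu142. Gh_A10G178600 (chromosome A10, 99235952 to 99237305, minus strand) had 0, 0 and 1 reads in Xu142 and 25, 17 and 37 reads in Xu142fl, or 0.390 ± 0.675 against 21.2 ± 3.84 normalised reads (SD, n = 3). Its ratio of pooled reads was 54.0, with an exact 95% interval of 9.42 to 2161 that covers counting error only, and its log2 ratio of means was 5.76 ± 1.45 (SE). That was the largest ratio among the copies with reads in both groups, and it rests on 1 read in Xu142. Its partner Gh_D10G199100 (chromosome D10, 52308832 to 52310520, minus strand) had 0 reads in all 3 Xu142 libraries and 1, 6 and 18 reads in Xu142fl, a mean of 5.79 ± 4.61 normalised reads. Gh_A09G083700 (chromosome A09, 56486641 to 56489111, minus strand) likewise had 0 reads in Xu142 and 1, 4 and 15 reads in Xu142fl, a mean of 4.54 ± 3.77. A count of 0 allows up to 3 reads over the group, or a mean of 1.17 normalised reads. The observed Xu142fl mean was 4.93-fold that limit for D10 and 3.86-fold for A09. These ratios, called lower bounds below, take the Xu142fl mean as exact. They leave out its spread, and Xu142fl replicate 1, at 1.00 normalised reads in each of these copies, lay below the limit. A count of 0 reads in Xu142 was shared by 256 of the genes listed at 1 DPA.

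**Figure D1:**
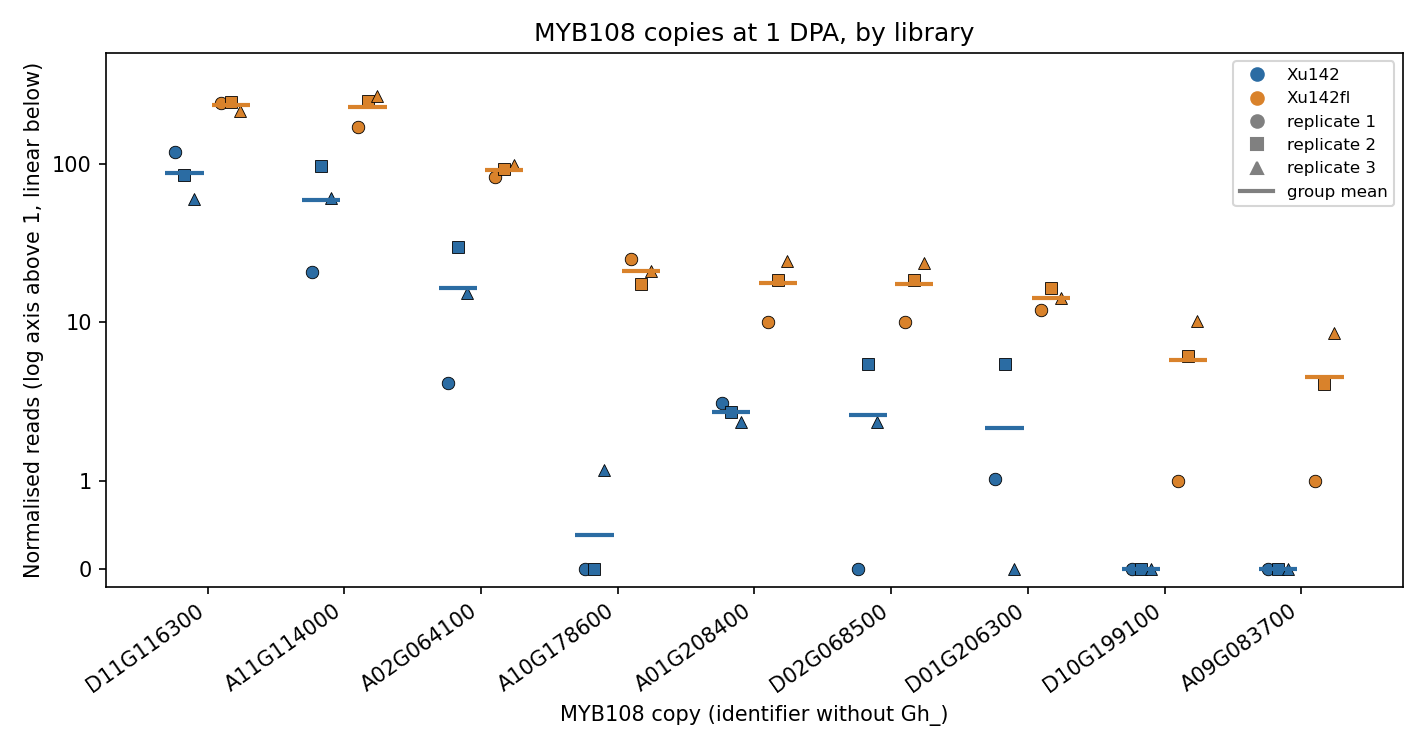
Normalised reads of each of the 9 MYB108 copies at 1 DPA in the 3 Xu142 and 3 Xu142fl libraries. Points are libraries and horizontal lines group means, on an axis that is logarithmic above 1 and linear below; in each of the 9 copies the lowest Xu142fl library lies above the highest Xu142 library.

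The plot of values by library shows the same order of genotypes in every copy and a range of levels that spans more than 1 order of magnitude between copies. The groups did not overlap in 9 of 9 copies, but this held also for 10529 of the 10793 listed genes (97.6%), since genes were listed for differing. Within the mutant, replicate 1 was the lowest library for 7 copies and replicate 3 the highest for 6. The sum of all 9 copies was 148, 225 and 141.5 normalised reads in Xu142 and 554, 670 and 684 in Xu142fl, with means of 172 ± 46.5 and 636 ± 71.5 (SD, n = 3), or 3.71-fold. The A11 and D11 copies made up 94.4%, 80.6% and 85.1% of this sum in Xu142 and 74.5%, 74.2% and 70.7% in Xu142fl. The lesser copies therefore took a larger share of MYB108 reads in each mutant library than in any Xu142 library.

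Per kilobase of deposited gene length, the order of levels in Xu142fl ran from D11, at 267 ± 19.0 normalised reads per kilobase, through A11 at 219 ± 49.9 and A02 at 63.0 ± 5.56 (SD, n = 3). D11 and A11 overlapped, and A02 was separate from its neighbours on both sides. Below them came A10 at 24.1 ± 4.36, D02 at 16.4 ± 6.53, D01 at 15.7 ± 2.40 and A01 at 14.7 ± 6.01, each overlapping the next. A09 at 5.14 ± 4.28, which overlapped A01, and D10 at 4.73 ± 3.77, which overlapped A09, were last. In Xu142 the first 3 places were the same, with D11 at 99.5 ± 33.7, A11 at 56.7 ± 36.4 and A02 at 11.4 ± 9.004. There the place of A10 differed: at 0.444 normalised reads per kilobase it lay below D02 at 2.44, D01 at 2.39 and A01 at 2.27, of which A01 did not overlap it.

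In the authors' deposited table, the log2 fold change of the 9 copies, with its sign turned so that positive is higher in Xu142fl, ran from 1.38 for D11 to 3.50 for A10. The deposited adjusted p-values ran from 7.83e-08 for A02 to 0.042 for A09, in the authors' deposited table. A09 was thus the member nearest to the threshold of 0.05, with D10 next at 0.0192 in the authors' deposited table. No copy outside the threshold has a value, because the tables hold listed genes only. The recovered reads of all listed genes were refitted with edgeR's quasi-likelihood test and Benjamini-Hochberg adjustment over the 61474 genes tested by the authors. In that refit 7 of the 9 copies passed 0.05, beside 10130 of all 10793 listed genes. It uses the contrast by which the genes were listed, so it is a description. The copies that did not pass, D10 and A09, had edgeR adjusted p of 0.0583 and 0.0726, and the other 7 ran from 0.000679 (A10) to 0.0321 (D01). Leaving out Xu142fl replicate 2 or Xu142fl replicate 3 lowered the edgeR count to 4 copies, beside 8483 and 8350 of the 10793 listed genes. Leaving out Xu142 replicate 3 lowered it to 5 copies, beside 8797 listed genes.

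The median log2 ratio of the 7 copies with Xu142 reads was 2.69. Over all 9 copies it was 2.72 with the 2 copies without Xu142 reads ranked above the others, and 2.47 with them at their lower bounds. Over all 3505 genes listed as higher in Xu142fl the median was 1.55. Both medians describe genes that were listed for differing. Only D11 lay below 1.55, as the plot of genotype ratios shows.

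**Figure D2:**
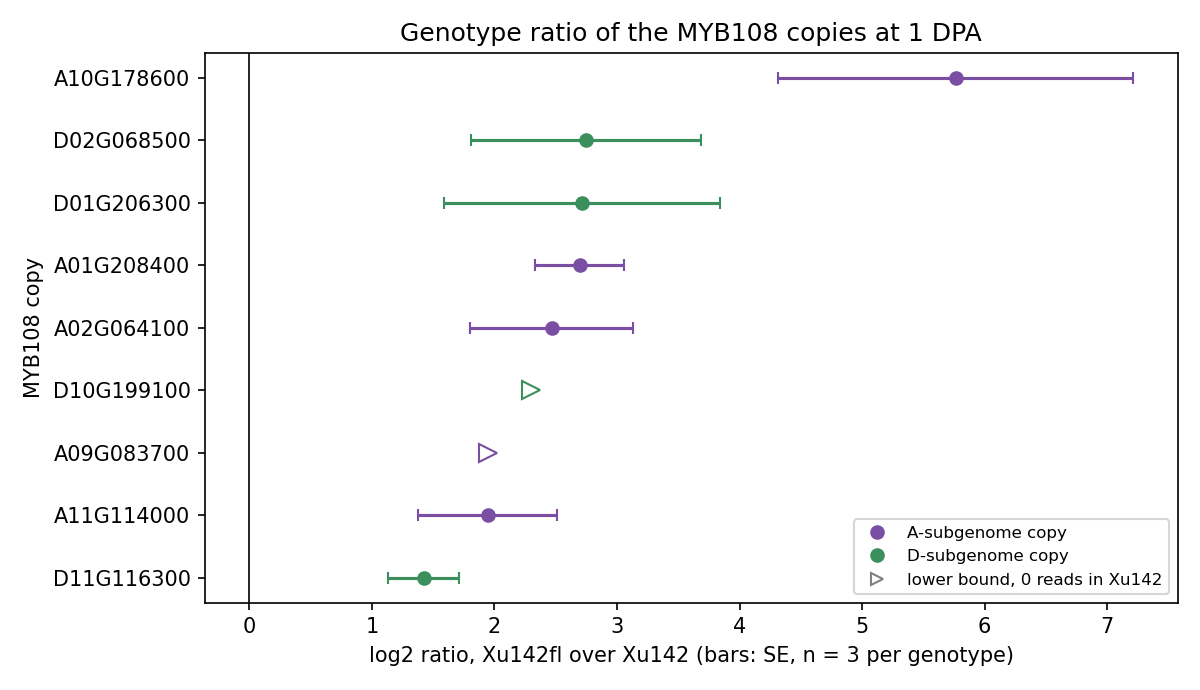
Log2 ratio of Xu142fl over Xu142 mean normalised reads at 1 DPA for each MYB108 copy, with bars of 1 SE. Copies with 0 reads in Xu142 are drawn at a lower bound that takes their Xu142fl mean as exact. Ratios run from 1.42 (D11) to 5.76 (A10), and D11 has the lowest value drawn.

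The level of a D copy against its A partner within a library was not part of how the genes were chosen, and it was tested over the 6 libraries of 1 DPA with an exact two-sided sign-flip permutation test. With 64 sign flips and no ties the smallest p this test can give is 0.0312, and over 4 pairs the adjusted value cannot then pass 0.05 unless at least 3 pairs reach it. Levels were compared on the log2 scale per kilobase, with 1 added to each value in the 3 pairs that had libraries at 0 and nothing added for A11 and D11. D02 stood -1.92 ± 0.30 (SD, n = 6) from A02. A02 was the higher copy in 6 of 6 libraries, at the smallest exact permutation p (0.0312, adjusted 0.125). With 1 added, the difference averaged -1.88 in the Xu142 and -1.96 in the Xu142fl libraries. With 0.1 added, the mean over the 6 libraries was -2.53. The size of the lead of A02 thus depends on the value added, most of all in Xu142, where D02 had 0, 4 and 2 reads. Whether it differed by genotype was not tested. For the pair on A11 and D11 the D-over-A log2 ratio was 0.66 ± 1.07 (SD, n = 6), with D11 higher in 5 of 6 libraries (exact permutation p = 0.0938, adjusted 0.167). It averaged 1.02 in Xu142 and 0.31 in Xu142fl, and fell to 0.24 when Xu142 replicate 1 was left out. With levels not divided by length it was 0.42 (exact permutation, adjusted p = 0.594). For A10 and D10 it was -1.41 ± 1.48 (SD, n = 6), with A10 higher in 4 libraries and both copies at 0 in the other 2 (exact permutation p = 0.125, adjusted 0.167). With those 2 ties 0.125 is the smallest p the test can give for this pair, so it could not have passed 0.05. The A01 and D01 copies, at -0.12 ± 0.97 (SD, n = 6), divided the libraries evenly, 3 with A and 3 with D higher (exact permutation p = 0.812, adjusted 0.812), and that sign turned when either Xu142 replicate 1 or replicate 3 was left out. No pair passed 0.05 after adjustment.

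**Figure D3:**
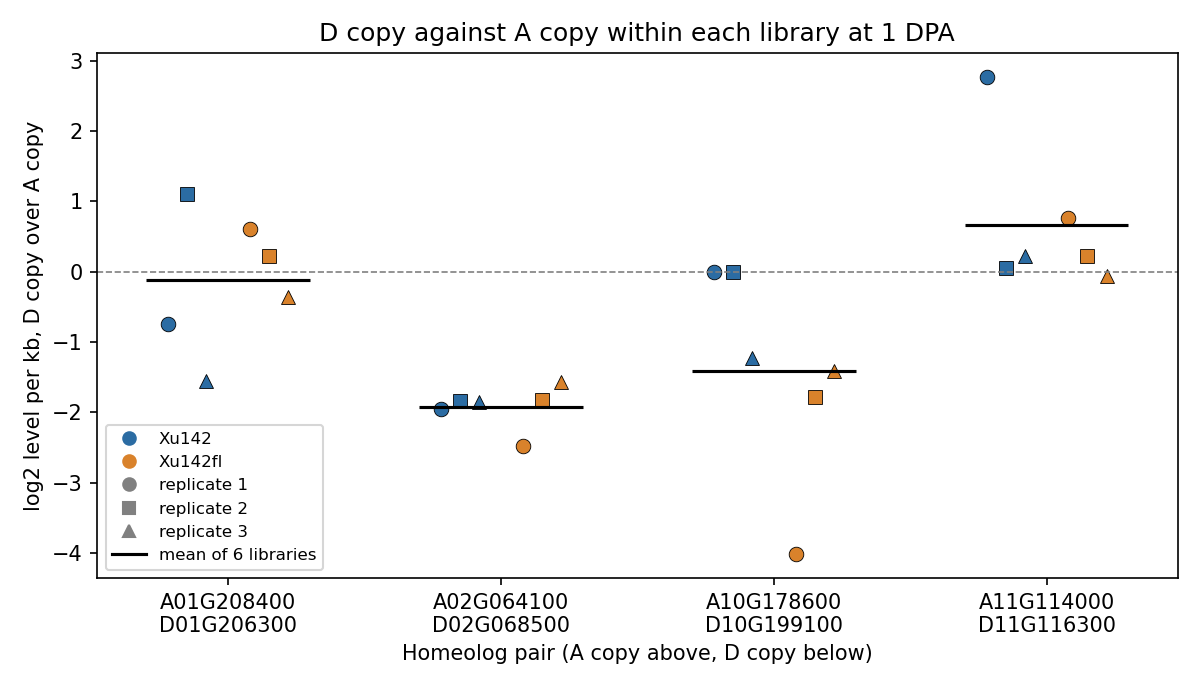
Within-library log2 ratio of the D copy over the A copy, per kilobase, for the 4 MYB108 homeolog pairs in the 6 libraries of 1 DPA. Points below 0 mean a higher A copy; the A02 and D02 pair lies below 0 in 6 of 6 libraries, and the A01 and D01 pair lies on both sides.

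The plot of D-over-A ratios shows 1 library apart from the rest in the A11 and D11 pair. The D11 share of the pair's level was 87.2% in Xu142 replicate 1, where the pair had 135 reads, against 50.9% and 53.8% in the other 2 Xu142 libraries. In Xu142fl it was 63.0%, 54.0% and 49.0%, so that in the 5 libraries other than Xu142 replicate 1 it lay between 49.0% and 63.0%. Among 1280 pairs of listed genes with the same protein name on corresponding A and D chromosomes and a mean of at least 50 normalised reads, the D share spread over the 3 Xu142 libraries by a median of 3.87 percentage points. The A11 and D11 pair, itself among the 1280, spread by 36.3 points. The median D share over those pairs was between 50.5% and 50.9% in every library. A median of this kind does not show whether single pairs shifted in Xu142 replicate 1. In the A02 and D02 pair the D share was 14.2%, 21.3% and 24.7% in Xu142fl. The D share of the A01 and D01 pair was 61.4%, 54.1% and 43.5% there.

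Directions of other genes are given with the authors' library factors. Factors taken by the TMM method from the listed genes alone moved the median log2 ratio at 1 DPA up by 1.21. Where that turned a direction of a named gene or list, it is stated as the TMM count. Over all 10793 listed genes, 3505 were above 0 with the authors' factors and 4813 with TMM factors. All 9 MYB108 copies stayed above 0, which is no check, since they were already higher and the factors moved ratios up.

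The genes listed beside the copies did not share one direction. Within 200 kb of the 9 copies, 19 other genes were listed, with 8 on the higher and 11 on the lower side in the mutant, 1 of which (ADP-ribosylation factor 2) turned above 0 with TMM factors. Beside the A01 and D01 copies lay a homeologous pair of genes named 3-ketoacyl-CoA synthase 6 (KCS6), an enzyme of very-long-chain fatty acid elongation in the epidermis. Gh_A01G208300, 39.2 kb from the A01 copy, was at 6561 ± 2777 in Xu142 and 374 ± 10.7 in Xu142fl (SD, n = 3), a log2 ratio of -4.13 ± 0.35 (SE). Gh_D01G206100, 32.3 kb from the D01 copy, had a log2 ratio of -4.10 ± 0.37 (SE). Thus the low-expressed MYB108 copies, higher in the mutant, stood next to abundant KCS6 transcripts that were lower in it, on both subgenomes. Beside the A11 and D11 copies lay a pair named WRKY transcription factor 23, which pointed the same way as MYB108. Gh_A11G114300, 40.7 kb away, was at 20.2 ± 6.53 in Xu142 and 80.1 ± 4.91 in Xu142fl, with a log2 ratio of 1.99 ± 0.27 (SE). Gh_D11G116600, 39.6 kb away, had a log2 ratio of 1.10 ± 0.31 (SE). On the other side of the D11 copy, Gh_D11G116200, named galactinol synthase 1 (the first enzyme of raffinose sugar synthesis), lay 33.3 kb away and was lower in the mutant, with a log2 ratio of -2.48 ± 0.04 (SE). No gene was listed within 200 kb of the A09 or D10 copy.

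**Figure D4:**
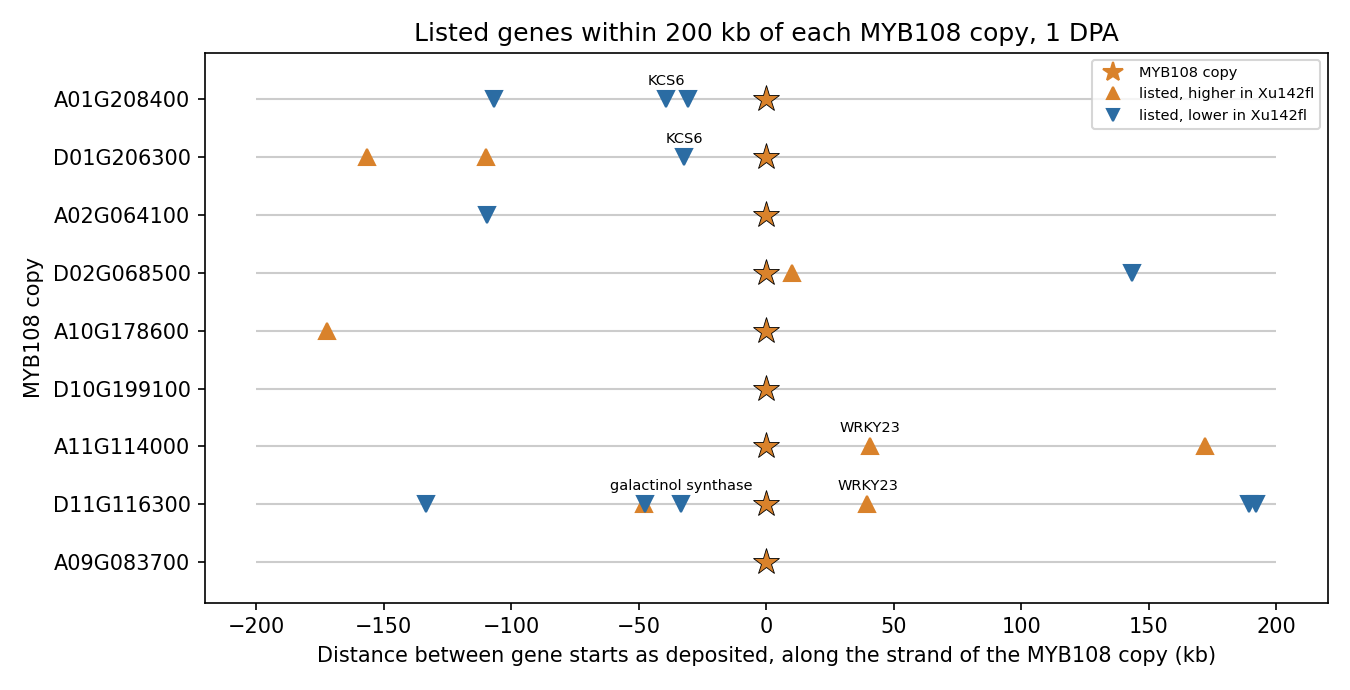
Genes listed at 1 DPA within 200 kb of each MYB108 copy (star), placed by the distance in kb between gene starts along the strand of the copy. Triangles pointing up are the 8 genes higher in Xu142fl and those pointing down the 11 lower ones, 1 of which turned above 0 with TMM factors.

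The genes with the most similar profiles over the 6 libraries of 1 DPA were sought among listed genes with a protein name. The measure was the root mean square difference of log2(value + 1), centred on each gene's mean. Nearest to D11 were a gene named for the wax ester synthase WSD1 (Gh_D07G148000, difference 0.04) and one for DXR, an enzyme of plastid isoprenoid synthesis (Gh_Contig00802G000100, 0.08). A gibberellin 20-oxidase 2 (Gh_D09G051300, 0.10) followed. For A11 they were a pentatricopeptide repeat protein (Gh_D09G184100, 0.08), the auxin transport facilitator PIN-LIKES 5 (Gh_A02G210700, 0.12) and transmembrane protein 135 (Gh_A09G275800, 0.13). A02 was nearest to a receptor-like kinase (Gh_A11G238000, 0.16), a wall-associated receptor kinase-like 14 (Gh_D05G198600, 0.21) and a cytochrome P450 82C4 (Gh_A04G139200, 0.21). A01 was nearest to the ethylene-signalling F-box protein EBF2 (Gh_D06G111500, 0.18) and to CCD7, an enzyme of strigolactone synthesis (Gh_A12G111400, 0.18). CCD7 had means of 0 in Xu142 and 4.98 in Xu142fl, against 2.72 and 17.6 for A01, so that match depends on the added 1. The lowly read copies had less close or plastid-type neighbours: A09 was nearest to an ATP synthase epsilon chain (0.19), and D10 to a plastid NDH subunit (0.07). With 6 libraries and 10793 listed genes, close profiles of this kind are a description. For copies near 0 reads, such as A09 and D10, the differences also depend on the added 1. Among the MYB108 copies themselves, D10 and A09 differed least (0.19), followed by A02 and D02 (0.28).

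Other MYB genes did not share the single direction of the MYB108 copies. The authors' family column assigned 92 further genes listed at 1 DPA to the Myb DNA-binding family, with 36 on the higher and 56 on the lower side (38 above 0 with TMM factors). Across all listed genes 32.5% were higher (4813 of 10793 above 0 with TMM factors). Of the 36 higher family members, 18 had a log2 ratio above the lowest MYB108 ratio and 3 above the median MYB108 ratio. Of the 77 genes with another MYB name, 30 were higher and 47 lower (33 above 0 with TMM factors), with a median log2 ratio of -1.55 against -1.31 over all listed genes. The most abundant lower ones were named MYB86, at 3088 ± 584 in Xu142 and 422 ± 41.3 in Xu142fl (Gh_D03G165800, log2 ratio -2.87 ± 0.18), and MYB306, at 1487 ± 332 and 11.3 ± 2.21 (Gh_D13G184900, -7.04 ± 0.25). The most abundant higher ones were EFM, a MYB repressor of flowering in Arabidopsis (Gh_A13G036800, 1.12 ± 0.21), and the cell-cycle factor MYB3R-1 (Gh_D05G051300, 1.11 ± 0.11). No gene named for the nearest relatives of MYB108 (MYB2, MYB62, MYB78, MYB112 or MYB116) was listed at 1 DPA. The stamen factors MYB21, MYB24, MYB57 and MYB305 were listed on none of the 3 days.

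Jasmonate genes, named here because Arabidopsis MYB108 responds to that hormone, were divided. Of 21 listed genes of jasmonate synthesis, 10 were higher and 11 lower in Xu142fl (11 above 0 with TMM factors), with a median log2 ratio of -1.12. An allene oxide synthase gene (Gh_D06G011800) was at 908 ± 188 in Xu142 and 1946 ± 166 in Xu142fl, with a log2 ratio of 1.10 ± 0.19 (SE). An acyl-CoA oxidase gene of the later, peroxisomal steps (Gh_D12G235100) was at 1958 ± 275 and 785.5 ± 66.2, with a log2 ratio of -1.32 ± 0.14 (SE). Of 8 listed signalling genes, 3 were higher, and these were named for the activators MYC2 and MYC3. MYC2 on A03 (Gh_A03G005600) was at 114 ± 17.2 in Xu142 and 424 ± 13.8 in Xu142fl, a log2 ratio of 1.90 ± 0.13 (SE), and MYC2 on D03 (Gh_D03G192900) had a log2 ratio of 1.75 ± 0.29 (SE). The 5 lower ones comprised 4 TIFY genes, named for repressors that hold MYC2 inactive, and 1 Ninja-family gene named AFP2, whose log2 ratio of -1.12 turned to 0.05 with TMM factors. TIFY 6B on D12 (Gh_D12G290300) was at 709 ± 323 in Xu142 and 162 ± 4.74 in Xu142fl, with a log2 ratio of -2.13 ± 0.38 (SE).

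Calmodulin-related names and BOI-type ligases were looked at because proteins of these kinds are described as binding MYB108. The calmodulin list had 47 listed genes, 34 named calmodulin or calmodulin-like and 13 named for binding to or regulation by calmodulin. Of the 47, 3 were higher and 44 lower in Xu142fl, with a median log2 ratio of -1.77. With the authors' factors 93.6% were thus lower, against 67.5% of all listed genes. With TMM factors 12 of the 47 were above 0, against 4813 of all 10793 listed genes. The most abundant, Calmodulin-7 on D09 (Gh_D09G114200), was at 7949 ± 427 in Xu142 and 3592 ± 508 in Xu142fl, with a log2 ratio of -1.15 ± 0.13 (SE) that turned to 0.05 with TMM factors. Calmodulin-7 on A09 (Gh_A09G122000) was at 5805 ± 774 and 2430 ± 272, with a log2 ratio of -1.26 ± 0.14 (SE) that became -0.05 with TMM factors. The most abundant higher genes were the calmodulin-regulated kinase CRLK1 (Gh_D01G069300, 1.30 ± 0.21) and a calmodulin-like protein 50 (Gh_D03G083700, 7.40 ± 0.43), which went from 4.91 ± 2.51 in Xu142 to 828 ± 14.3 in Xu142fl. Genes named calmodulin-like protein 11 were looked up after values had been seen, since a protein of that name is the described partner in cotton. All 3 listed ones were lower, with log2 ratios of -3.36 ± 0.17 (Gh_D09G236000), -2.55 ± 0.43 (Gh_A09G245200) and -4.79 ± 1.55 (Gh_A12G231600, SE). The last rests on low values, 5.25 ± 3.62 in Xu142 and 0.189 ± 0.328 in Xu142fl (SD, n = 3). The 5 listed BOI-type ubiquitin ligases were lower in the mutant, with log2 ratios from -2.37 to -1.19, except that the smallest of these turned to 0.03 with TMM factors. The most abundant were Gh_A11G028500, at 590 ± 153 in Xu142 and 258 ± 9.24 in Xu142fl, and Gh_A01G035600, at 602 ± 8.16 and 204 ± 39.5 (SD, n = 3).

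Of 16 listed genes of the defence list, 10 were higher and 6 lower in Xu142fl (10 above 0 with TMM factors as well), with a median log2 ratio of 1.59. A thaumatin-like protein 1 (Gh_D05G186000) was at 156 ± 111.96 in Xu142 and 728 ± 238 in Xu142fl, with a log2 ratio of 2.22 ± 0.66 (SE), and the pathogenesis-related protein 5 (Gh_D01G184900) had a log2 ratio of 1.08 ± 0.10 (SE). The most abundant lower gene was a chitinase-like protein 1 (Gh_D10G004900), at 4676 ± 1283 and 1356 ± 70.1, a name given in Arabidopsis to a protein of cell wall cellulose synthesis. Of 52 listed genes of cell death and the abscisic acid response, 23 were higher and 29 lower (30 above 0 with TMM factors), with a median log2 ratio of -1.08. The abscisic acid receptor PYL9 (Gh_D11G103900) had a log2 ratio of 1.42 ± 0.13 (SE), whereas the cell-death protease metacaspase-9 (Gh_D06G210400) went from 3964 ± 433 in Xu142 to 267 ± 61.2 in Xu142fl, a log2 ratio of -3.89 ± 0.21 (SE).

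**Figure D5:**
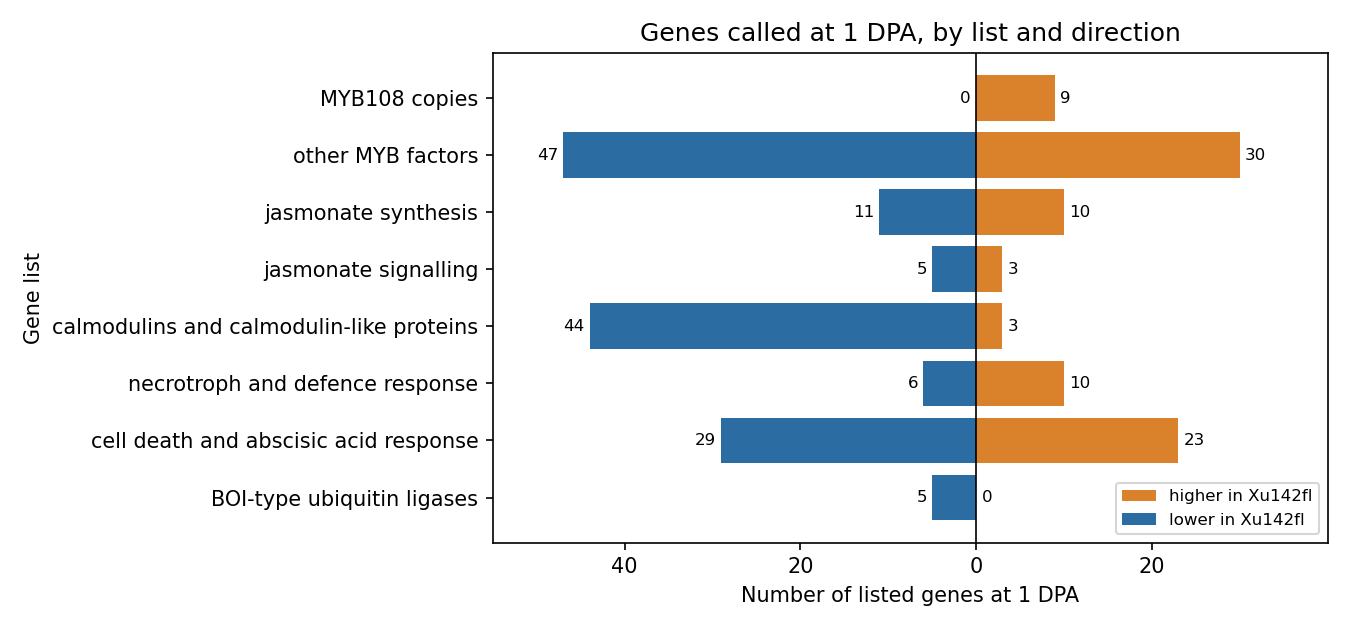
Number of genes listed at 1 DPA as higher or lower in Xu142fl for MYB108 and for each gene list. With the authors' factors MYB108 had 9 higher and 0 lower, the calmodulin list 3 and 44 (12 above 0 with TMM factors), and the defence list 10 and 6.

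The plot of list counts sets these numbers side by side. Among protein names given to at least 9 genes listed at 1 DPA, 21 in all, 2 had every gene higher in Xu142fl and 11 had every gene lower. These counts of names use the authors' factors and were not made with TMM factors. The 2 names with every gene higher were MYB108 and EIN3-binding F-box protein 2, each with 9 genes.

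Markers of cell types that ovule samples can hold are given beside these values. Of all genes listed at 1 DPA, 67.5% were on the lower side in Xu142fl (5980 of 10793 with TMM factors). The markers were taken by words in the protein names, which need not mark the cell type. The anther and pollen list, for instance, holds genes named Major pollen allergen Bet v 1-F/I. Of 26 listed fiber and epidermis markers at 1 DPA, 20 (76.9%) were lower in Xu142fl, and their summed level was 336670 to 472609 normalised reads in Xu142 and 30455 to 45365 in Xu142fl. Both listed HDG11 genes were at 0 in all Xu142fl libraries, and 1 lipid-transfer gene was at 0 in Xu142. Of 13 anther and pollen markers 9 (69.2%) were lower (8 with TMM factors), with sums of 1499 to 1696 in Xu142 and 550 to 800 in Xu142fl. Of 33 green tissue markers 21 (63.6%) were lower (19 with TMM factors), with sums of 1038 to 1180 and 437 to 771. With the authors' factors, the shares of the anther, pollen and green tissue lists were thus near that of all listed genes. None of the anther, pollen or green tissue markers was at 0 in a whole group, and no seed storage marker was listed. The part of these differences in the MYB108 values was not tested. In whole ovules, fewer cells of a type and less RNA per cell cannot be told apart.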

How the data were processed

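Ovule RNA of 2 genotypes on 3 days was sequenced in 18 libraries. The authors deposited 3 tables, 1 per day, of genes they had listed as different. The use of strand, the aligner, the counter, the annotation and the build were not given in the sources used here. Every library has its deposited signal column of normalised reads per gene. In every library 100% of listed values were whole multiples of 1 step within a tolerance of 0.001, which gave the reads. The deposited log2 fold change has Xu142 as numerator, per the file headers; here it is given with the opposite sign. The number of genes tested was worked out from the deposited p-value columns, raw and adjusted. Gene coordinates and lengths are those of the authors' build.

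Genes were taken as MYB108 by the recommended protein name in the deposited description, which names a similar protein of known sequence and says nothing tested about function. The members and lists were chosen with earlier results of these data known. Log2 ratios are of group means, Xu142fl over Xu142, with delta-method standard errors. The planned edgeR test of raw counts of all genes did not apply, since the tables hold listed genes only, so the authors' calls are the result. As alternatives, recovered reads were refitted with edgeR 4.0.16 (quasi-likelihood, 872, 1144 and 10130 genes called at -1, 0 and 1 DPA), DESeq2 1.42.0 and limma 3.58.1 in R 4.3.3, adjusted over the genes tested; the procedure was tested on simulated data. Intervals and limits of 3 reads cover counting error only. Homeolog pairs were tested by exact sign-flip permutation, with Benjamini-Hochberg adjustment over 4 pairs. Besides all MYB108 copies, the text names the 3 most similar genes per copy or fewer, and up to 2 higher and 2 lower genes of largest mean per list. Of the neighbours within 200 kb it names those that pair across subgenomes and the 1 that turned with TMM factors. Galactinol synthase 1 was picked by hand from the other neighbours. Genes said to be chosen later are named as well. The neighbours, the calmodulin-like protein 11 genes and the shared protein names were chosen after values had been seen.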

Additional observations from a re-analysis of the deposited data

How the results depend on the processing

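For the 7 copies with Xu142 reads, 90 of 90 alternative log2 ratios were above 0. That sign was given in advance and is no check, since each copy was listed as higher and its groups did not overlap. Of the 90 ratios, 81 lay within 1 SD of the reported value. That SD is the SE of the log2 ratio times the square root of 3, and it is wide for copies with few Xu142 reads. For A10 the deposited 3.50, against 5.76 here, counted as within it. A09 and D10, and A10 without Xu142 replicate 3, have no ratio in this count, since no Xu142 read is left. Of 9 copies listed by the authors, edgeR called 7, DESeq2 with the authors' factors 7, limma on log2(value + 1) 9 and on log2(value + 0.1) 7. Of all 10793 listed genes, the same fits called 10130, 9808, 9909 and 9333, in that order. Leaving out 1 library gave 4 to 7 copies (edgeR). The median log2 ratio of 2.72, with the copies without Xu142 reads ranked highest, became 3.90 with log2(value + 0.1), 3.99 with TMM factors and 4.04 with DESeq2 factors of the listed genes, and 2.38 to 3.90 without 1 library each. Factors from listed genes center the list on itself: they moved the median log2 ratio of all genes listed at 1 DPA by 1.21 (TMM) and 1.25 (DESeq2), left 5916 and 5991 of 10793 genes called, and gave a share of higher calls of 59.2% (edgeR) and 58.5% (DESeq2), against 30.7% and 29.9% in the same refits with the authors' factors and 32.5% in the authors' list. The number of higher calls was 3505 with either set of factors, as in that list. At 0 DPA the 1366 listed genes became 804 (TMM), 808 (DESeq2 factors), 522 (limma, 0.1 added) and 688 to 1016 without 1 library each. At 1 DPA leaving out 1 library gave 8350 to 10241 genes. The D-over-A log2 ratio of A01 and D01, -0.12, was 0.16 in Xu142fl alone and -0.36 to 0.17 without 1 library each (0.0042 without Xu142 replicate 1). With alternative protein names included, chosen after seeing the data, jasmonate signalling had 5 higher and 8 lower genes, the calmodulin list 8 higher and the defence list 12 lower. Same-numbered libraries did not deviate together at 1 DPA (correlations 0.0604, 0.0317 and -0.0203); a replicate block gave 8 of 9 copies and 10249 against 10130 listed genes in edgeR. Where a value moved, the cause was not tested. For A09 and D10, with 0 Xu142 reads, only lower bounds that take the Xu142fl mean as exact could be given.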

Other observations

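Several protein names besides MYB108 had all their genes listed at 1 DPA on the higher side in Xu142fl. Among 208 names with at least 5 listed genes, 21 had every gene higher and 126 every gene lower, with the authors' factors only. EIN3-binding F-box protein 2 (EBF2), which in Arabidopsis targets the ethylene factor EIN3 for breakdown, had 9 of 9 genes higher, with Gh_D06G111500 at 164 in Xu142 and 853 in Xu142fl, a log2 ratio of 2.38 ± 0.30 (SE). Ethylene-responsive transcription factor 1A (ERF1A) had 7 of 7 genes higher, the ethylene receptor-associated kinase CTR1 5 of 5, and the NAC factors NAC83 and NAC72 5 of 5 each. These names were picked after their values were seen, from genes that were listed for differing, so the counts are descriptions.

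The D11 share of the A11 and D11 pair in the Xu142 libraries spread more than in nearly all other pairs. Of 1280 pairs, a set that holds this pair itself, 2 spread by as much or more (0.156%). Among the 190 pairs with reads within 2-fold of this pair, the median spread was 6.92 percentage points and 1 pair spread as much. The D11 reads in the 3 Xu142 libraries were 115, 62 and 51, and the A11 reads were 20, 71 and 52. The assignment of reads to A11 or D11 in Xu142 replicate 1 could not be checked without the reads.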
